A study of Mus musculus with 4 samples.

Results

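The guide strands of the miR-23, miR-27 and miR-24 clusters were followed across 4 arrays of A3-1 mouse embryonic stem cells. The members were the 5 array names mmu-miR-23a, mmu-miR-23b, mmu-miR-27a, mmu-miR-27b and mmu-miR-24, taken by a rule on names out of 577 miRNA names on the array. The rule used no values, but the members were chosen with earlier results of these data known. In the first group Lin28a was targeted by siRNA for 48 h (siLin28a), and in the control group an siRNA to GFP was used for the same time (siGFP). There were 2 replicates per group, each measured on 1 single-colour array with 100 ng of Cy3-labelled RNA. All cells were of the A3-1 line, cultured in serum-containing medium with LIF, which is used to hold such cells undifferentiated. The labels name no mutation or other agent in either group. They do not say whether the replicates came from separate cultures, so the spread behind each p-value is that between these samples and may be technical. The array reads no mRNA, so the knockdown itself was not seen.

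Mouse has 2 copies of this cluster, each of which gives its miRNAs from 1 primary transcript. The a cluster holds the hairpins of miR-23a, miR-27a and miR-24-2, and the b cluster those of miR-23b, miR-27b and miR-24-1. Both miR-24 hairpins give the same mature guide strand, so miR-24 on the array is the sum over both clusters, while the miR-23 and miR-27 names keep the clusters apart. These miRNAs are broadly expressed and are known for roles in endothelial, muscle, blood and fat cells. LIN28A, the protein targeted by the siRNA, is an RNA-binding protein best known for blocking the maturation of let-7 precursors.

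RefSeq mature sequences (build GRCm38.p6) were matched for 4 of the 5 members. They are shown because the paralogs whose levels are compared are nearly alike, and the capitals mark the seed, bases 2 to 8, which pairs with target mRNAs.
miR-23a: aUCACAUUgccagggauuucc
miR-27a: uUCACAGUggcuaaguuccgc
miR-27b: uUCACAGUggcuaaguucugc
miR-24: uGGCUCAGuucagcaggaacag
miR-23b was the remaining member. The miR-27 paralogs share their seed and differ at 1 of 21 bases, C19U counted from the 5′ end of miR-27a, which makes them 95.2% identical. The 3 seeds shown differ between miR-23a, miR-27 and miR-24, so mates in the a cluster do not share a seed, though those of miR-23a and miR-27 are nearly alike. In the b cluster this was seen for miR-27b and miR-24 only.

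The hairpins of the miR-27 paralogs are shown because LIN28 is known to bind the letters GGAG in the terminal loop of let-7 precursors. The capitals mark the 2 arms that become mature strands, and the loop lies between them.
Mir27a hairpin: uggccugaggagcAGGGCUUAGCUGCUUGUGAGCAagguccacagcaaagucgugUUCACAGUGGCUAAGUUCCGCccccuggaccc
Mir27b hairpin: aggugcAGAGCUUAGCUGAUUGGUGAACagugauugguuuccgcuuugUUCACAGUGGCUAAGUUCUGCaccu
The letters GGAG, searched on the hairpin strand only, were found in 3 of the 6 hairpins of both clusters (Mir27a, Mir24-2 and Mir24-1), against 44.5% of 1005 RefSeq mouse hairpins. In those 3 they lay outside the stretch between the arms. Between the arms they were found in 0 of the 5 hairpins with both arms in the table, against 8.07% of 644 such hairpins. This describes letters in these windows and says nothing of binding.

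In build mm9, per the file headers, the probe targets of miR-23a lie on chromosome 8 at 86732465 to 86732482, and those of miR-27a at 86732630 to 86732646. Their ends are 164 bases apart. The targets of miR-23b lie on chromosome 13 at 63401841 to 63401857, those of miR-27b at 63402072 to 63402088 and those of miR-24 at 63402563 to 63402580. The files give 1 locus per name, so miR-24 is listed at the b cluster alone. In the RefSeq gene table of GRCm38.p6, Mir23b, Mir27b and Mir24-1 lie within the bounds of the protein-coding gene Aopep. Mir23a, Mir27a and Mir24-2 overlap no protein-coding gene there, and the nearest one is Zswim4. Exons and introns were not annotated here.

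Every member was called detected on all 4 arrays, and both probes of each were well above background on all 4. The processed probe signals of the members were between 91.4 and 361, on a linear scale, and no member spot was saturated. Each probe has 10 spots on an array, and the spots of a probe varied by a coefficient of variation of 1.1% to 8.25%. The 2 probes of a member are nested, with targets of 16 to 18 bases, so they are not independent of each other. For comparisons, probe signals were divided by the 75th percentile of the probes well above background on every array and taken to log2. A log2 scaled signal of 0 therefore equals that percentile. A level of one miRNA set against another also holds the brightness of their probes, so between miRNAs only changes from array to array are compared.

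With siLin28a, the members of the b cluster were higher and those of the a cluster lower in mean level, and miR-24, made by both, lay close to 0 difference. miR-27b was 1.19-fold higher (95% interval 1.01 to 1.4) and miR-23b 1.15-fold higher (0.984 to 1.34). miR-27a had a fold of 0.833 (0.618 to 1.12) and miR-23a of 0.888 (0.658 to 1.20). None of the 5 passed the test over all miRNAs. The sizes depend on how background is corrected and how arrays are scaled. With normexp background correction, which adds an offset of 50, the log2 differences were 0.08 for miR-23b and 0.13 for miR-27b. They were -0.13 for miR-23a and -0.21 for miR-27a. With the scaling over all probes the log2 differences were 0.02 for miR-23b and 0.08 for miR-27b, and with no scaling they were -0.06 for miR-27a and 0.03 for miR-23a, which turned its direction. In that test (limma, Benjamini-Hochberg adjustment over 231 miRNAs, adjusted p below 0.05), 0.866% of miRNAs were called.

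**Figure D1:**
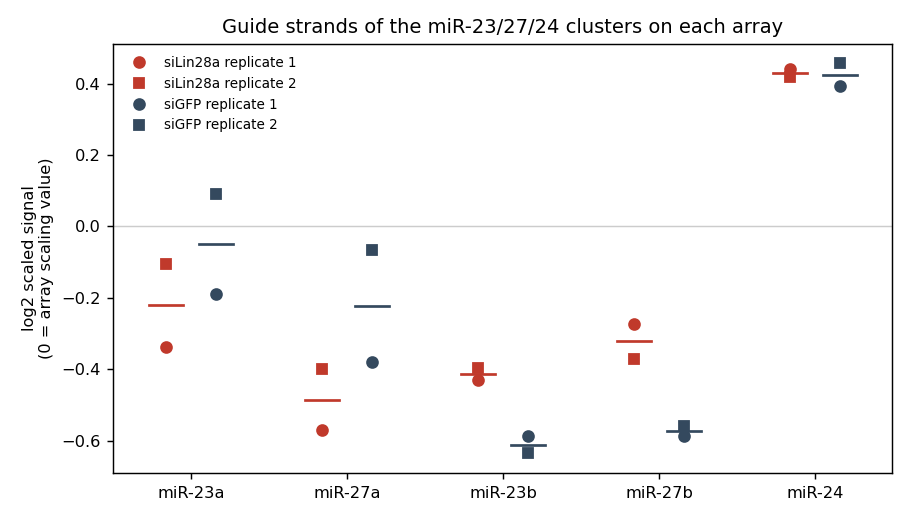
Log2 scaled signal of each guide strand on each array, with siLin28a left of siGFP, circles for replicate 1, squares for replicate 2 and lines for group means (n = 2 arrays each). miR-23b and miR-27b lie higher on both siLin28a arrays, miR-27a lies lower on both, and the groups overlap for miR-23a and miR-24.

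The b cluster was described first by its miR-27 member. miR-27b, a paralog of miR-27a and known as a repressor of fat cell differentiation and lipid genes, had log2 scaled signals of -0.27 and -0.37 on the siLin28a arrays, against -0.59 and -0.56 on the siGFP arrays. Both siLin28a arrays lay above both siGFP arrays, and the gap between groups was wider than the spread within either. The difference was 0.25 on the log2 scale (SE 0.08, limma adjusted p = 0.178), and its 95% interval of 0.02 to 0.48 is not adjusted for the number of miRNAs. The total signal that Feature Extraction gives for miR-27b, not scaled between arrays, was 316 and 319 with siLin28a and 225 and 235 with siGFP.

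miR-23b, known in human cells as a repressor of glutaminase, showed the same order of groups. Its log2 scaled signals were -0.43 and -0.40 with siLin28a, against -0.59 and -0.64 with siGFP. The arrays of each group lay close together, with an SD of 0.02 with siLin28a and 0.03 with siGFP (n = 2 each). The difference of 0.20 (SE 0.08, 95% interval -0.02 to 0.42, limma adjusted p = 0.211) did not pass. Its total signals were 286 and 315 with siLin28a and 230 and 226 with siGFP.

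In the a cluster the arrays of a group lay further apart. miR-27a had log2 scaled signals of -0.57 and -0.40 with siLin28a, against -0.38 and -0.07 with siGFP. The groups did not overlap, but the higher siLin28a array and the lower siGFP array were close. The difference was -0.26 (SE 0.15, 95% interval -0.69 to 0.17, limma adjusted p = 0.330). Without siGFP replicate 2 it was -0.11. The total signals of miR-27a, before scaling, were 245 and 298 with siLin28a and 247 and 313 with siGFP.

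miR-23a, known in human cells as a repressor of glutaminase like its paralog, overlapped between groups. It had log2 scaled signals of -0.34 and -0.11 with siLin28a, against -0.19 and 0.09 with siGFP. The difference was -0.17 (SE 0.15, 95% interval -0.60 to 0.26, limma adjusted p = 0.474), and it was -0.03 without siGFP replicate 2. Total signals were 302 and 381 with siLin28a and 297 and 363 with siGFP, so the unscaled values were slightly higher with siLin28a, where both arrays were brighter as a whole. The siLin28a arrays were scaled by 248 and 265 and the siGFP arrays by 226 and 220.

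Both members of the a cluster were higher on the replicate 2 array than on the replicate 1 array in each group. For miR-23a this gap was 0.23 with siLin28a and 0.28 with siGFP, and for miR-27a it was 0.17 with siLin28a and 0.31 with siGFP. In the b cluster the same gap was 0.03 with siLin28a and -0.05 with siGFP for miR-23b. For miR-27b it was -0.10 with siLin28a and 0.03 with siGFP. Replicate number goes with the place of an array on the slide. Replicate 2 lay at positions 4 (siLin28a) and 3 (siGFP), and replicate 1 at positions 2 (siLin28a) and 1 (siGFP). The part of position in these gaps was not tested.

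miR-24, known in human blood cells as a repressor of the histone H2AX, had log2 scaled signals of 0.44 and 0.42 with siLin28a, against 0.39 and 0.46 with siGFP. The siLin28a values lay between the siGFP values. The difference was 0.0043 (SE 0.062, limma adjusted p = 0.982), with a 95% interval of -0.17 to 0.18 that leaves room for changes of that size in either direction. Because the array reads both miR-24 loci as 1 name, opposite differences in its 2 sources could not be seen in it.

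**Figure D2:**
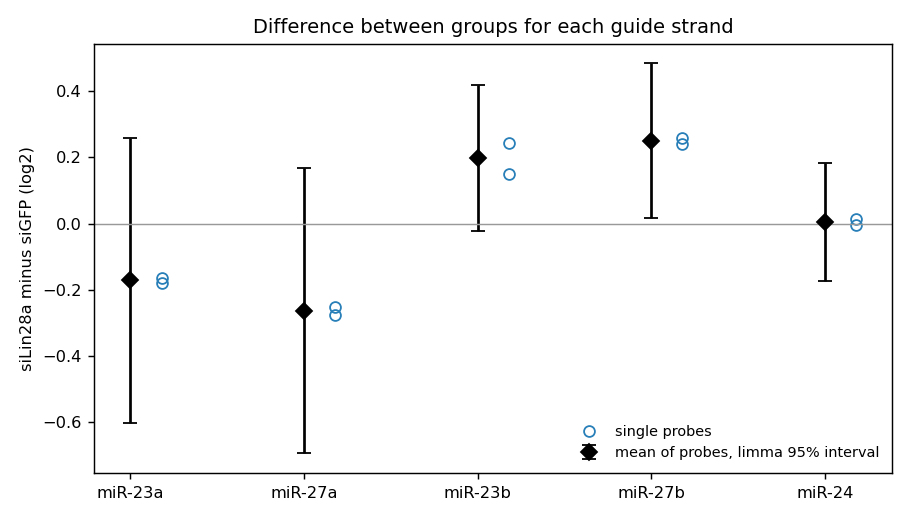
Difference between siLin28a and siGFP (log2) for each guide strand, as the mean over its probes with limma's 95% interval (diamonds and bars) and for each of its 2 probes alone (open circles). The 2 probes of miR-23a, miR-27a, miR-23b and miR-27b lie on the same side of 0 as their mean, and those of miR-24 lie on either side close to 0.

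The probes of a member gave close values, with those of miR-23b furthest apart. The differences were 0.24 and 0.26 for the probes of miR-27b and 0.15 and 0.24 for those of miR-23b. They were -0.27 and -0.25 for miR-27a and -0.18 and -0.16 for miR-23a. The 2 probes of miR-24 gave 0.01 and -0.0052. All 4 probes of the b cluster pair lay higher on both siLin28a arrays than on either siGFP array, and both probes of miR-27a lay lower.

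Without adjustment, 1 of the 5 members, miR-27b, had a limma p below 0.05, against 24.7% of all tested miRNAs. The groups did not overlap for 2 members that were higher and 1 that was lower, against 30.7% of all miRNAs in each direction and 61.5% in either. These shares are close to the members' own, so the count of members without overlap does not set them apart. Their median difference was 0.0043 and that of all 231 was 0. The middle 50% of tested miRNAs had a difference between -0.21 and 0.24, a range that holds miR-23a, miR-23b and miR-24 and leaves out miR-27a and miR-27b.

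**Figure D3:**
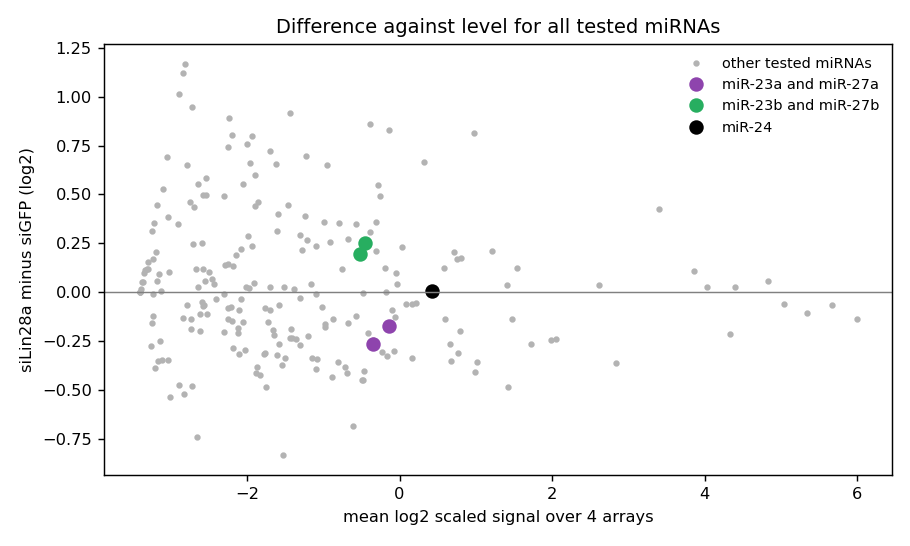
Difference between siLin28a and siGFP (log2) against the mean log2 scaled signal over 4 arrays for all 231 tested miRNAs, with the 5 guide strands in colour. The members sit at middle levels, and the a and b pairs lie on opposite sides of 0 within the cloud of other miRNAs.

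The ratio of 2 miRNAs on the same array does not depend on how arrays are scaled by a common factor. The a over b paralog ratios were lower on both siLin28a arrays. The log2 ratio of miR-27a over miR-27b was -0.30 and -0.03 with siLin28a, against 0.21 and 0.49 with siGFP. The groups did not overlap, with a difference of -0.51, a fold of 0.700. The sign of the ratio on an array also holds the brightness of the probes and is not read. The ratio of miR-23a over miR-23b was 0.09 and 0.29 with siLin28a, against 0.40 and 0.73 with siGFP, a difference of -0.37 and a fold of 0.774. Taken as the mean of both a members over the mean of both b members, the log2 ratio averaged 0.01 ± 0.17 with siLin28a and 0.46 ± 0.22 with siGFP (SD, n = 2 each). The difference was -0.44, a fold of 0.736. Without siGFP replicate 2 it was -0.29.

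The exact two-sided permutation test over 4 arrays gave p = 0.333 for each of these 3 ratios, the smallest it can give with 2 arrays against 2, so no ratio can pass this test. Over all 9 ratios of paralogs and cluster mates the adjusted value was 0.429. The spread within a group came mostly from the a members, whose replicate 2 arrays were higher in both groups. Probe sequences were not used here, and the part of cross-hybridisation between the paralogs was not tested.

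**Figure D4:**
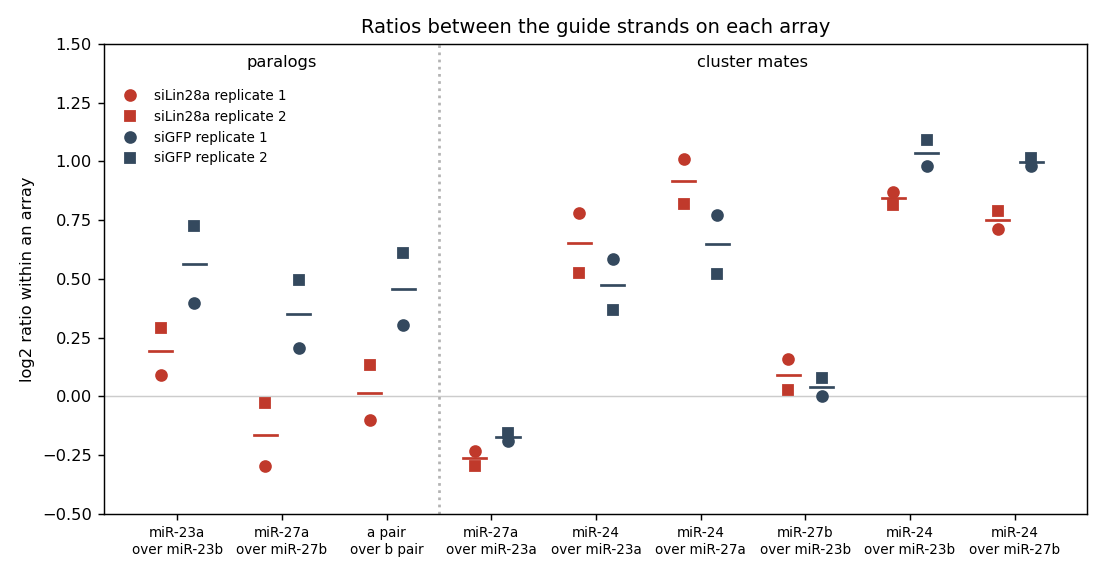
Log2 ratios within each array for 3 paralog comparisons (left of the dotted line) and 6 comparisons of cluster mates, with siLin28a left of siGFP, circles for replicate 1, squares for replicate 2 and lines for group means (n = 2 arrays each). The 3 paralog ratios lie lower on both siLin28a arrays, while miR-27a over miR-23a and miR-27b over miR-23b differ by little between groups.

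The ratio of miR-27 over miR-23 within a cluster differed by less between groups than the ratio of paralogs between clusters. The log2 ratio of miR-27b over miR-23b was 0.16 and 0.03 with siLin28a, against 0.00 and 0.08 with siGFP, and the groups overlapped (difference 0.05, exact permutation p = 0.667). The ratio of miR-27a over miR-23a was -0.23 and -0.30 with siLin28a, against -0.19 and -0.15 with siGFP, a difference of -0.09 without overlap (exact permutation p = 0.333). The paralog differences of -0.37 and -0.51 were thus larger in size than the mate differences of -0.09 and 0.05, though this contrast was not tested.

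miR-24 stood between the clusters. Its log2 ratio over miR-27b was 0.71 and 0.79 with siLin28a, against 0.98 and 1.02 with siGFP, a difference of -0.25. Over miR-23b it was 0.87 and 0.82 with siLin28a, against 0.98 and 1.09 with siGFP, a difference of -0.19. Both ratios were lower on each siLin28a array. Over miR-27a it was 1.01 and 0.82 with siLin28a, against 0.77 and 0.52 with siGFP, a difference of 0.27 without overlap. Over miR-23a it was 0.78 and 0.52 with siLin28a, against 0.58 and 0.37 with siGFP, a difference of 0.18 with overlap. The exact permutation p was 0.333 for the first 3 of these ratios and 0.667 for the last.

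In all, 7 of the 9 ratios did not overlap between groups, against 58.4% of the 26565 ratios that the tested miRNAs can form. The median size of the difference over all those ratios was 0.33 on the log2 scale. In size, the paralog ratios lie above that median, miR-23a over miR-23b (-0.37) by little. The miR-27 over miR-23 ratios and all the ratios of miR-24 lie below it. The 9 ratios share their 5 members and are not independent.

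Other pairs of tested miRNAs named a and b give a closer setting, chosen after the values were seen. Among 17 such pairs outside the clusters, the difference of the a over b ratio ran from -0.53 to 0.44, with a median of 0.08. Of these, 4 were lower and 6 higher without overlap. From the lowest, miR-27a over miR-27b ranked at place 2 and miR-23a over miR-23b at place 3 of 19 pairs, after miR-106a over miR-106b. Which paralog is named a is arbitrary between families, so this signed rank makes the members look more extreme than their size does. In size, miR-101a over miR-101b (0.44) and miR-30a over miR-30b (0.42) also exceeded miR-23a over miR-23b. The median size over the 17 other pairs was 0.14. Pairs by name need not be alike in sequence, and several come from clusters shared with other pairs.

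**Figure D5:**
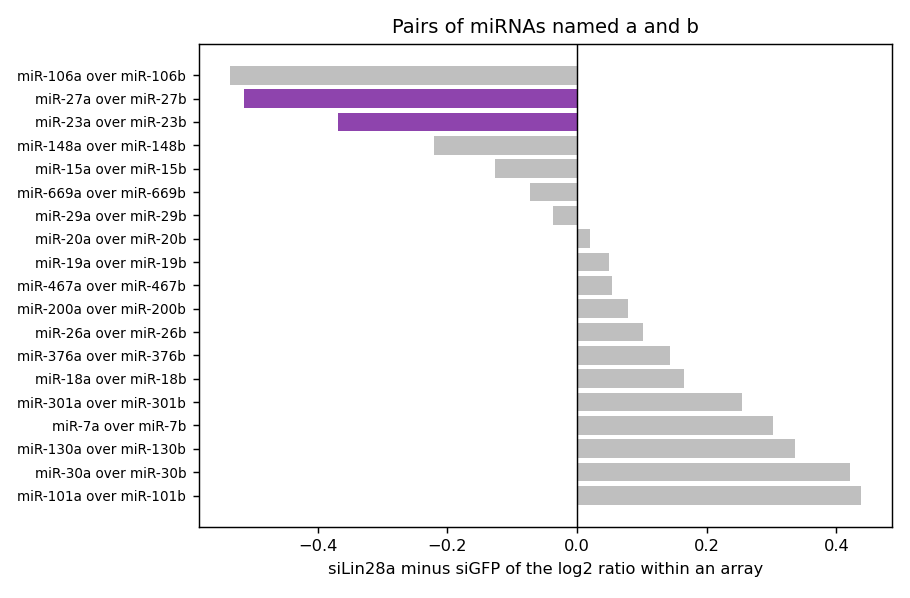
Difference between siLin28a and siGFP of the log2 ratio within an array for 19 pairs of tested miRNAs named a and b, as bars from 0, with the miR-27 and miR-23 pairs in purple. Both lie near the low end, at -0.51 and -0.37, and the other 17 pairs run from -0.53 to 0.44.

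Of the 6 opposite strands of the same hairpins, 4 were on the array (miR-27a*, miR-27b*, miR-24-1* and miR-24-2*). None was called detected on any array. Their total signals ran from -6.31 to 6.72, against a lowest value of 225 among the guide strands, and none was tested. miR-24-2* had the highest values, 2.21 and 6.72 with siLin28a and 1.53 and 3.58 with siGFP. The strands that would tell the 2 sources of miR-24 apart were therefore not measured above background.

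The miRNAs most like the members were sought by the root mean square distance of their 4 log2 values, each centred on its own mean, to the mean centred values of the 5 members. The nearest were miR-30d (0.026), miR-295* (0.027) and miR-322 (0.035). The members themselves lay further from that mean, from 0.038 for miR-24 to 0.153 for miR-27a, because the a and b pairs differ in opposite directions. Distances to each pair alone were added after the values were seen. The nearest to the a pair were miR-323-3p (0.021), miR-181c (0.025) and miR-154 (0.033). The nearest to the b pair were miR-361 (0.042), miR-29a (0.045) and miR-106b (0.046). All rest on 4 arrays.

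miR-181c, with miR-181d, is encoded beside the a cluster, with a probe target end 29641 bases from that of miR-23a in mm9. It had log2 scaled signals of -1.62 and -1.41 with siLin28a, against -1.50 and -1.15 with siGFP, and the groups overlapped. Its difference was -0.19 (SE 0.18, limma adjusted p = 0.516). miR-181c was picked by its likeness to the a pair on these same arrays, so its similar difference is no separate finding. miR-181d, not among the nearest, had -1.79 and -1.65 with siLin28a, against -1.64 and -1.27 with siGFP, a difference of -0.26 (SE 0.18, limma adjusted p = 0.379). Neither passed the test.

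The labelled cell type was checked against marker miRNAs. Of 11 mature strands from the cluster that starts with miR-290, which marks embryonic stem cells, 10 were detected on all 4 arrays and tested. Of these, 1 was higher and 4 were lower without overlap, with a median difference of -0.06. Of the lists for other cells rich in the miR-23/27/24 clusters, those for muscle and endothelial cells were mostly dim, and the blood list in part. None of 4 muscle miRNAs was detected on any array, and 3 of 4 endothelial ones (miR-126-5p, miR-221 and miR-222) and 3 of 6 blood ones (miR-223, miR-451 and miR-144) were not. In the blood list, 2 were detected on all 4 arrays. Of those lists, 2 blood miRNAs (miR-142-3p and miR-150) were tested, with a median difference of 0.0083, and both overlapped between groups. miR-142-3p had log2 scaled signals of -1.65 and -2.65 with siLin28a, against -1.78 and -2.34 with siGFP. Of the fibroblast or feeder list, 9 were on the array, 5 were detected on all 4 arrays and 5 were tested. Of those tested, 3 were higher and 1 lower without overlap, with a median difference of 0.10. That median is the value of miR-143, which lay at the floor set for low values (log2 -3.40) on both siGFP arrays. The lower one, miR-31, was at this floor on siLin28a replicate 1. In the stem cell list, miR-291b-3p, also lower, was at the floor on siLin28a replicate 2. Over all tested miRNAs, 30.7% were without overlap in each direction and 61.5% in either. The summed total signal of the feeder list, unscaled, was 1077 and 1205 with siLin28a and 908 and 871 with siGFP. Its members miR-145, miR-199a-5p and miR-10b were not detected. The unscaled sum was higher on both siLin28a arrays, as was that of the stem cell list (66711 and 69176 with siLin28a, 60358 and 60077 with siGFP) and of the endothelial list (32.0 and 34.6 with siLin28a, 29.0 and 26.8 with siGFP). The sum of the blood list overlapped between groups (162 and 115 with siLin28a, 127 and 101 with siGFP). The siLin28a arrays were brighter as a whole, which enters all of these sums. The part of brightness in the feeder sum was not tested. In scaled values, the median difference was 0.10 for the feeder list and -0.06 for the stem cell list. The part of feeder cells in the difference of miR-23b and miR-27b was not tested. In RNA from whole cultures, fewer cells of a type and less RNA per cell cannot be told apart.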

How the data were processed

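Linear intensity was read from the deposited scanner files, 1 Cy3 array per sample, made with Agilent Feature Extraction (9.5.1.1 per the file headers, 9.5.3.1 per the submitters' processing notes). Processed intensity is background-subtracted within the array. The authors' deposited table holds the total gene signal of the same arrays, unscaled, with values at or below 0 written as 0. All 4 arrays were on 1 slide.

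Outlier spots (3.21% to 4.32%) were left out, spots averaged over each of 1712 probes, and arrays divided by the 75th percentile over 425 probes with at least 50% of spots well above background on all 4 arrays. Values were floored at 0.0948 and taken to log2. Probes that were so in both replicates of either group were kept (477 probes, 231 miRNAs) and averaged per miRNA. No member value was at the floor.

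The difference siLin28a minus siGFP was fitted in limma 3.58.1 (R 4.3.3; trend, two-sided, Benjamini-Hochberg, threshold 0.05), with 2 residual and 1.64 prior degrees of freedom. Ratios within an array got an exact permutation test over arrays. The number of arrays limits precision. All members, the opposite strands on the array and the 3 nearest miRNAs are named by rule. Members and lists were chosen with earlier results of these data known.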

Additional observations from a re-analysis of the deposited data

How the results depend on the processing

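Under 16 alternatives no member passed the adjusted threshold, with the lowest adjusted limma p at 0.117 (miR-27b). The direction held in all 16 for miR-27a, miR-23b and miR-27b, and in all 15 tried for the 3 paralog ratios. Filter, floor, block and trend settings left these differences unchanged where tried, and common scaling cannot move a ratio, so none tests direction. With the scaling over all probes miR-23b was at 0.02, miR-27b at 0.08, miR-23a at -0.35, miR-27a at -0.44 and miR-24 at -0.17. With no scaling between arrays miR-27a was at -0.06, miR-23b at 0.40, miR-27b at 0.45, miR-24 at 0.21 and miR-23a at 0.031. miR-24 was at -0.078 with quantile normalization and -0.055 with both the total gene signal and the authors' deposited table. The median of all miRNAs was 0.19 with no scaling and -0.16 with the scaling over all probes. Relative to it, miR-23a was at -0.16 in the first, and miR-24 at -0.01, miR-23b at 0.18 and miR-27b at 0.23 in the second. With the normexp background, which adds an offset of 50, the ratio differences shrank to -0.34 for miR-27a over miR-27b and -0.21 for miR-23a over miR-23b, and those of miR-24 to -0.04 over miR-23b and -0.09 over miR-27b.

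With 1 array left out, the lone array of a group was assumed to vary like the others. Differences then ran from -0.31 to -0.03 for miR-23a, -0.42 to -0.11 for miR-27a, 0.17 to 0.22 for miR-23b, 0.20 to 0.30 for miR-27b and -0.027 to 0.036 for miR-24, which was -0.0067 without siLin28a replicate 1 and -0.027 without siGFP replicate 1. The a pair over b pair ratio ran from -0.60 to -0.29, miR-23a over miR-23b from -0.53 to -0.21 and miR-27a over miR-27b from -0.66 to -0.37. The ratio of miR-27b over miR-23b ran from -0.012, without siLin28a replicate 1, to 0.12.

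The count of called miRNAs, 2 as reported, was 0 with the scaling over all probes, 0 with normexp, 0 with probes well above background on all 4 arrays, 8 with the total gene signal, 8 with the authors' deposited table, 10 with the floor halved and 48 with no filter on dim probes. It ran from 0 to 11 with 1 array left out, 0 without either siGFP array, 11 without siLin28a replicate 1 and 7 without siLin28a replicate 2. The causes were not tested.

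With the replicate number as a block, 2 miRNAs were again called and no member was. The adjusted limma p values ran from 0.175 for miR-27a to 0.987 for miR-24. Between arrays of the same number the a pair over b pair ratio differed by -0.40 for replicate 1 and -0.48 for replicate 2. In the same order, miR-23a differed by -0.15 and -0.19 and miR-27a by -0.19 and -0.34. For miR-23b the values were 0.16 and 0.24, for miR-27b 0.31 and 0.19, and for miR-24 0.05 and -0.04. Deviations of same-numbered arrays correlated at 0.71 across miRNAs, though the labels do not say that the numbers mark a shared culture or day. No slide block could be fitted on 1 slide.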
